A study of Mus musculus with 4 samples.

Results

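The nuclear genes of the mitochondrial oxidative phosphorylation system were described in mouse type 1 innate lymphoid cells (ILC1s). Members were the protein-coding genes whose symbols begin with Ndufa, Ndufb, Ndufc, Ndufs, Ndufv, Uqcr, Cox4 to Cox8 or Atp5, together with Sdha to Sdhd and Cyc1. This rule chose 94 of the 40481 genes in the deposited count table, and it used no measured value. By complex, 36 genes encode subunits of complex I, 4 of complex II, 9 of complex III, 20 of complex IV and 16 of complex V. The other members, 8 Ndufaf genes and Atp5s, carry family names of the complexes but encode assembly or coupling factors, and they were kept apart from the 85 subunit genes. Processed pseudogenes with members' symbols (11 genes) did not meet the rule.

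The ILC1s, which belong to the same family as natural killer (NK) cells and stay in tissues, were sorted as CD49a+. All libraries came from mice with floxed Inpp4b on both alleles (Inpp4b flox/flox), and 2 libraries with no further allele served as controls. The 2 libraries labelled knockout also carried the Ncr1-iCre transgene, in which Cre recombinase is driven by Ncr1, the gene of a receptor of NK cells and ILC1s. The effect of the transgene itself and that of losing Inpp4b cannot be told apart. Liver is named for control library 1, and age is not given in the sources used here. Whether each library stands for its own mouse is not given, and the spread behind every p-value may thus be technical, being only that between these samples.

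Oxidative phosphorylation is carried out by 5 complexes in the inner mitochondrial membrane. Complexes I and II pass electrons from NADH and succinate to ubiquinone, complex III passes them on to cytochrome c, and complex IV reduces oxygen. Proton pumping by complexes I, III and IV drives complex V, the ATP synthase. A few subunits are made in the mitochondrion from its own genome, and the others are encoded in the nucleus and imported. Lymphocytes use this system at rest and during activation.

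Library totals ranged from 42380840 to 54878210 counts. Inpp4b itself was not lower in the libraries labelled knockout, at 142.5 and 86.0 CPM (reads of a gene per 1e6 reads, after TMM scaling) against 78.7 and 106.5 CPM in the controls. The counts sum the whole gene, so they neither check nor contradict a deletion of part of it. The defining ILC1 genes were present in every library, with Itga1, which encodes CD49a, between 178.9 and 217.6 CPM. Of the 12 ILC1 markers, all tested, 4 lay apart as lower, with both libraries labelled knockout below both controls (Itga1, Tbx21, Ncr1 and Cd200r1). In the other direction 2 lay apart as higher, and the median log2 fold change was -0.003. Over all 14863 tested genes, 20.8% lay apart as lower and 19.5% as higher. Ncr1, the gene that drives the Cre, had 1672 and 1772 CPM in the controls and 1202 and 1077 CPM in those labelled knockout. Its log2 fold change was -0.60 (SE 0.14), and it passed as lower by DESeq2 (adjusted p = 0.0294) but not by edgeR's quasi-likelihood test (adjusted p = 0.280). Markers of some other cells moved with the group. The monocyte, dendritic cell and neutrophil markers had 8 of 15 tested genes pass as higher by edgeR and 9 by DESeq2, and the list of 17 summed to 1056 and 1193 CPM in the controls against 3103 and 3684 CPM in those labelled knockout. Within that list Lyz2 had the largest log2 fold change among the genes that passed by edgeR. Of its neutrophil genes, S100a8 and S100a9 were under 1 CPM in every library, and Mmp8 had 0.07 and 0.02 against 1.35 and 0.99 CPM and passed as higher by DESeq2 (adjusted p = 0.0300) but not by edgeR (adjusted p = 0.329). The 12 Kupffer cell and macrophage markers summed to 38.9 and 35.4 against 110.0 and 135.6 CPM, with 0 passing as higher by edgeR (6 at an unadjusted p under 0.05) and 4 by DESeq2, and with Timd4, Marco and Vsig4 at 0 in control 1 and knockout 3. The 9 NK cell markers summed to 72.8 and 79.1 against 325.7 and 918.5 CPM, the latter pair mostly from Klra1 and Klra7, with 1 passing as higher by edgeR and 3 by DESeq2, and with Eomes between 0.87 and 3.73 CPM. The 12 T cell markers summed to 2493 and 2454 against 2985 and 4047 CPM, a sum made up mostly of Cd3g, Trbc1 and Trbc2, with 1 passing as higher by edgeR and 4 by DESeq2. These were Trac, Cd3e, Cd3d and Cd8a, of which Trac passed by both. Trac had 7.31 and 5.67 against 85.1 and 200.9 CPM, and Cd3e 26.5 and 15.1 against 152.5 and 371.0 CPM. Trbc1 lay apart as lower, at 442.9 and 615.5 against 389.5 and 425.2 CPM. Among tested genes, 13 of 15 monocyte, dendritic cell and neutrophil markers lay apart as higher and 0 as lower. In the T cell list 8 of 11 lay apart as higher and 1 as lower (Trbc1). The Kupffer cell and macrophage list had 7 of 10 higher and 1 lower (Clec4f), and the NK cell list 6 of 9 higher and 1 lower (Itga2). In the other lists the group sums overlapped, and edgeR called 0 genes. B and plasma cell markers summed to 715.7 and 1046 against 649 and 804 CPM. Hepatocyte markers had 209.4 and 131.0 against 201.5 and 217.5 CPM. Endothelial and stellate markers had 58.0 and 81.9 against 66.2 and 70.5 CPM. Erythroid and platelet markers had 397.7 and 275.4 against 235.7 and 837.9 CPM. DESeq2 called 1 hepatocyte gene higher, and 1 erythroid or platelet gene higher and 1 lower. Of 8 tested erythroid and platelet markers 1 lay apart as higher and 2 as lower (Ppbp and Itga2b). Apart as higher were 3 of 12 hepatocyte, 1 of 4 endothelial and stellate and 0 of 4 B and plasma cell markers, with 0 lower in each. The part of any of these cell types in the values below was not tested. In bulk RNA fewer cells of a type cannot be told apart from less RNA per cell.

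No oxidative phosphorylation gene passed the test between genotypes, while most had a slightly higher level in both libraries labelled knockout. Of the 94 members, 89 had enough counts to be tested, and the other 5 are tissue isoforms described below. At an adjusted p under 0.05 in edgeR's quasi-likelihood test with Benjamini-Hochberg adjustment over all 14863 tested genes, 0 members passed as higher and 0 as lower, where 0.141% and 0.0135% of all genes were. DESeq2 also called 0 members, where it called 1.85% of all genes higher and 1.36% lower. With unadjusted p-values under 0.05, edgeR gave 9 members as higher and 0 as lower, against 4.48% and 5.17% of all genes, and DESeq2 gave 9 and 0. The 9 by edgeR are Sdhc, Atp5h, Ndufs4, Ndufaf7, Cox6b1, Cox5b, Cox6c, Atp5e and Uqcrh. The lowest adjusted p among members was 0.347 by edgeR and 0.0906 by DESeq2, both for Sdhc.

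Both libraries labelled knockout lay above both controls for 60 of the 89 tested members and below them for 0. Among all tested genes these shares were 19.5% and 20.8%. The median log2 fold change of the members was 0.24, and 79 of 89 had a fold change above 0, against a median of -0.01 and 48.7% of all tested genes. Among the 83 members that averaged at least 10 CPM, 59 lay apart as higher, where 23.2% of the 7700 genes at that level did, and 9 were higher at an unadjusted p under 0.05, where 4.87% were. The members share the same 4 libraries and their scaling, so their number is not a number of independent observations. Summed over the members, the level was 12737 and 13260 CPM in the controls and 14872 and 15618 CPM in those labelled knockout. Their share of all counts was 1.35% and 1.29% against 1.51% and 1.49%.

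**Figure D1:**
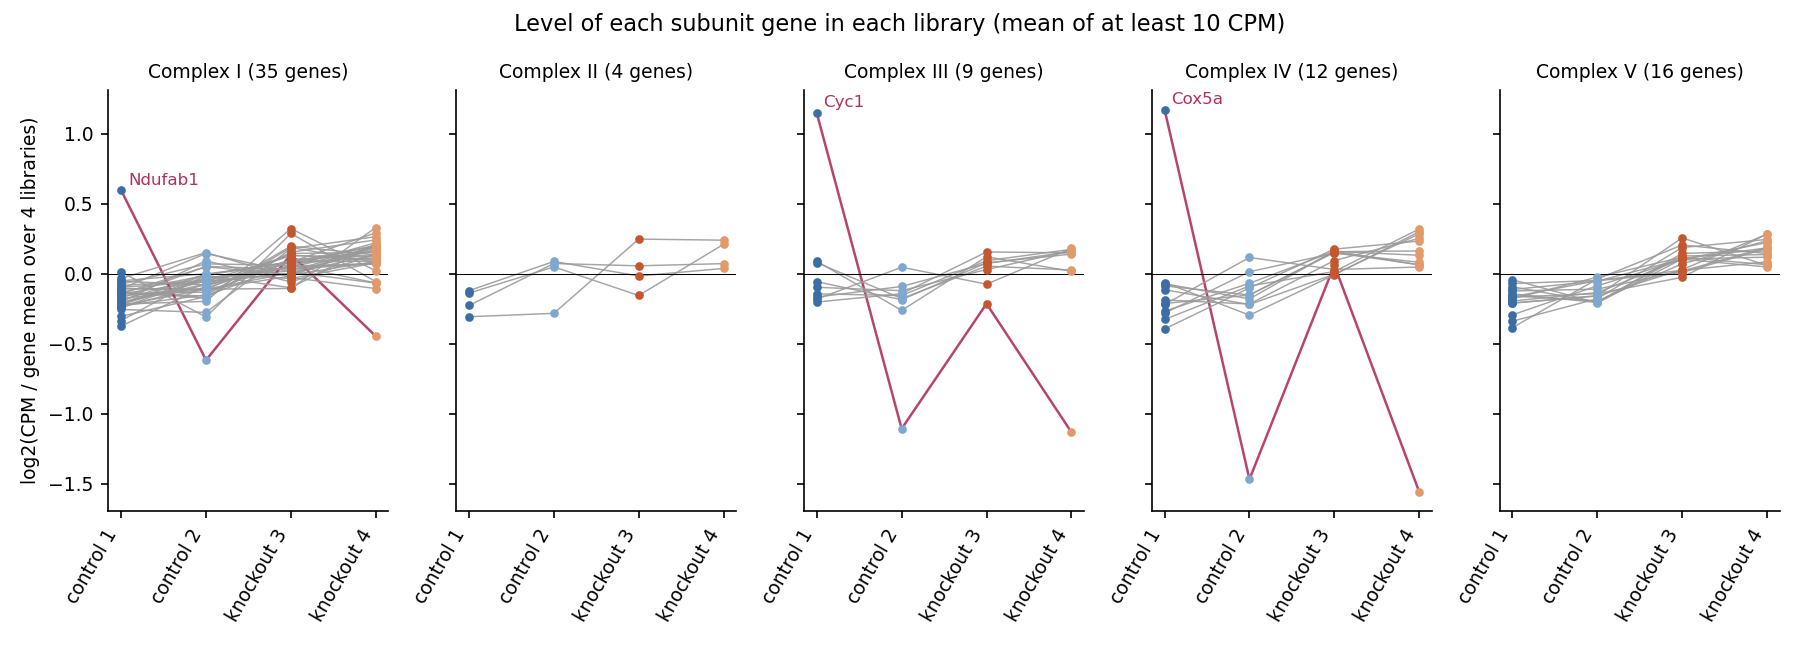
Level of each subunit gene averaging at least 10 CPM in the 4 libraries, 1 panel per complex; the y axis is the log2 ratio of the gene's TMM-scaled CPM to its mean over the 4 libraries, and a line joins the values of 1 gene. Most genes are slightly higher in both libraries labelled knockout, and Ndufab1, Cyc1 and Cox5a instead split the libraries within each group.

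**Figure D2:**
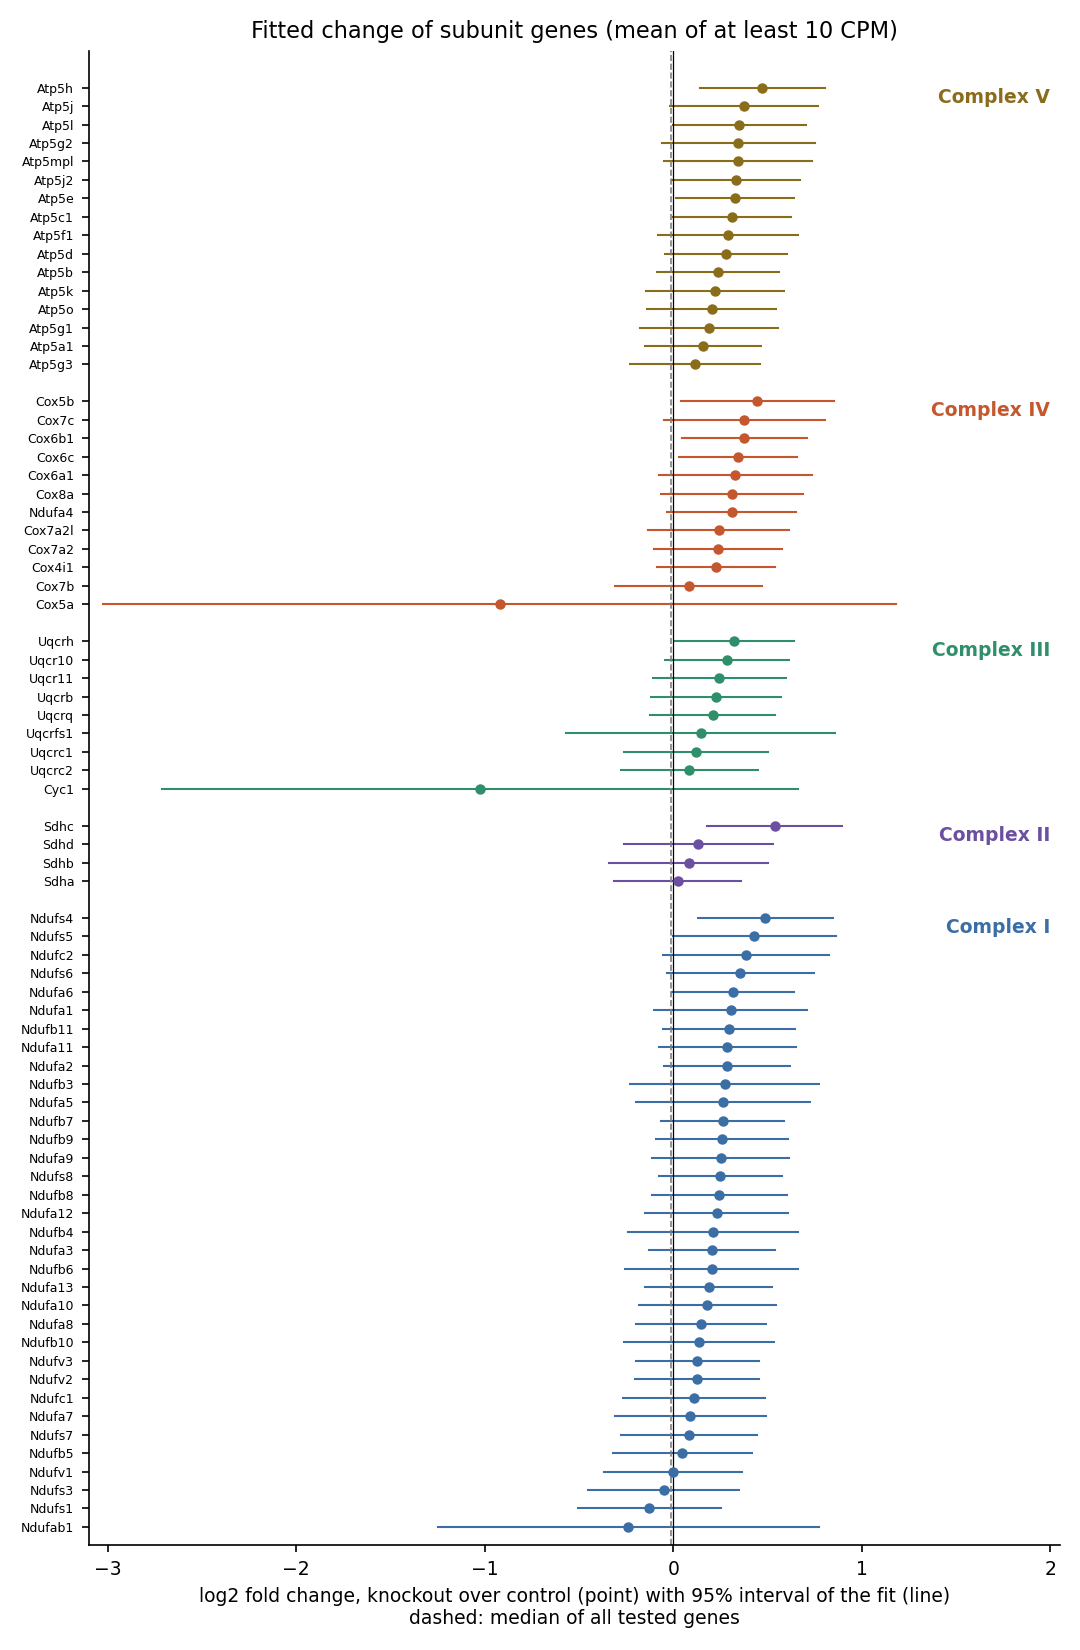
Fitted log2 fold change of the subunit genes averaging at least 10 CPM, except 1 that is not reported (point) with the 95% interval of the edgeR fit (line), in order of size within each complex; the dashed line is the median of all tested genes. Most points lie between 0 and 0.54, most intervals include 0, and Cox5a and Cyc1 have the widest intervals.

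Promoter windows of RefSeq (GRCm38.p6, 250 bases before to 50 after the start) were found for 76 members, in 82 windows. Below are the 250 upstream bases of the gene with the smallest p in each complex among those with a window, chosen by that p and not by motifs, so that a reader can see the letters near the start. Capitals mark CCGGAAG, the core letters bound by ETS factors such as GABP, on either strand, here as CTTCCGG.
Ndufs4 (chr13:114388095-114388344, minus strand): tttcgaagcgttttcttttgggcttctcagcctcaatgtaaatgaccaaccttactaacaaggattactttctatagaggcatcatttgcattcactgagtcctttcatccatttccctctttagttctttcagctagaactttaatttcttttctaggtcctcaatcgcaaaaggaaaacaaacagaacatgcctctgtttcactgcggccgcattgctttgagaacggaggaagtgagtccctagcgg
Sdhd (chr9:50603850-50604099, minus strand): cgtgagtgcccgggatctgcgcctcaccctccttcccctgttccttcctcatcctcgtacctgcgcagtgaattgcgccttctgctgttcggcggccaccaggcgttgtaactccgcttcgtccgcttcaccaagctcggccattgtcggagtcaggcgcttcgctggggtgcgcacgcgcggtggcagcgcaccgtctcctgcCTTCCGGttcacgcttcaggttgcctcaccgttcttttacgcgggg
Uqcrh (chr4:116075071-116075320, minus strand): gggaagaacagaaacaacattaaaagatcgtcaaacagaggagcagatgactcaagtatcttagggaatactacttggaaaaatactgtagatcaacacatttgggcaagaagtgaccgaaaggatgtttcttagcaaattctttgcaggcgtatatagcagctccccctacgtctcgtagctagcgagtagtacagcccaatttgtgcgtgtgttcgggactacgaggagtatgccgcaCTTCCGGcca
Cox6b1 (chr7:30626115-30626364, minus strand): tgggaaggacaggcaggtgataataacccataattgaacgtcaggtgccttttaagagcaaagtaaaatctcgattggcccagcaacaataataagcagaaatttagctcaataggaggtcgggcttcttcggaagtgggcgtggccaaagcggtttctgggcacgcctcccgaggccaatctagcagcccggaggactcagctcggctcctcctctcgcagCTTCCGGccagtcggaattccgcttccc
Atp5h (chr11:115419920-115420169, minus strand): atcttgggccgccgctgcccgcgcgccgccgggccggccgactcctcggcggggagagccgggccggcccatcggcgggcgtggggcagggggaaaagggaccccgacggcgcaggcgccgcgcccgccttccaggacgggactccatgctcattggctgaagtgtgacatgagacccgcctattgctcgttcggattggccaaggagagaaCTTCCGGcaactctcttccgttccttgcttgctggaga
The letters begin 46 bases upstream of the RefSeq start in Sdhd, 10 in Uqcrh, 28 in Cox6b1 and 38 in Atp5h, and the Ndufs4 stretch holds none. The gene ranges given below for Ndufs4, Cox6b1 and Atp5h come from another annotation and reach into these stretches. The marked letters of Cox6b1 and Atp5h lie inside those ranges, so where they stand depends on the start used.

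In the 300-base windows CCGGAAG occurred in 22.0% of the members' windows, 17.7% of those of tested genes and 8.86% of all windows. CGCATGCG, the core of the NRF1 site, occurred in 13.4%, 3.77% and 1.87%, and AAGATGGCG, the core of the YY1 site, in 9.76%, 3.01% and 1.4%. These 3 strings and this window were kept after 9 strings in 2 windows (250 and 300 bases) had been looked at, so their shares are the favourable end of that search. AAGATGGCG followed by GC was the YY1 string first intended, and it occurred in 0 of the members' 250-base windows and in 6.10% of their 300-base windows, against 1.51% of tested genes. The shorter AAGATGGCG occurred in 1.22% of the members' 250-base windows and 1.18% of those of tested genes. The NRF1 string with a G added before it and a C after it occurred in 8.54% of the members' 300-base windows against 2.06% of tested genes, CCAAT in 42.7% against 38.1%, TATAAA in 9.76% against 7.58%, CACGTG in 8.54% against 9.75% and TGACGTCA in 4.88% against 2.98%. Both strands were searched, and each longer string overlaps the shorter one it contains. A match describes letters in a window and says nothing of whether a factor binds there.

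Complex I had a median log2 fold change of 0.22 over 36 tested genes, with 25 apart as higher, where 19.5% of all tested genes were. Ndufs4 (ENSMUSG00000021764, mm10 chromosome 13, 114287795 to 114388258, minus strand), an accessory subunit close to the NADH-oxidising module, had the smallest p, at 84.6 and 83.4 CPM in the controls and 114.4 and 121.4 CPM in those labelled knockout. Its log2 fold change was 0.49 (SE 0.15, edgeR's quasi-likelihood test with Benjamini-Hochberg adjustment, adjusted p = 0.384). The groups of Ndufs4 did not overlap, and the libraries within each differed by little. Ndufs5, another accessory subunit, reached 44.7 and 49.3 against 61.4 and 65.3 CPM (log2 fold change 0.43, SE 0.18).

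The 7 nuclear core subunits of complex I, which hold the flavin and iron-sulfur clusters or bind ubiquinone, had a median log2 fold change of 0.08, with 3 apart as higher. The 29 accessory subunits had a median of 0.25, with 22 apart as higher. Over all tested genes 19.5% lay apart as higher. Ndufs1, Ndufs3 and Ndufv1 were the core genes at or below 0, with log2 fold changes of -0.13, -0.05 and 0.00 that lay within their standard errors. The difference between core and accessory genes was not tested. Ndufb2, the complex I subunit gene with the lowest level per length, had 10.2 and 9.72 CPM in the controls and 10.96 and 6.59 CPM in those labelled knockout.

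Complex II, succinate dehydrogenase, showed a difference in 1 of its 4 genes only by an unadjusted p. Sdhc (ENSMUSG00000058076, chromosome 1, 171127165 to 171150603, minus strand), which encodes a membrane anchor, had 74.2 and 75.5 CPM in the controls and 109.0 and 108.5 CPM in those labelled knockout. Both pairs were nearly equal within the group and lay apart between groups. The log2 fold change was 0.54 (SE 0.15, edgeR's quasi-likelihood test with Benjamini-Hochberg adjustment, adjusted p = 0.347), a ratio of the means of 1.45. Sdha, the flavin subunit, had 454.4 and 525.1 against 488.7 and 507.3 CPM, and Sdhb, the iron-sulfur subunit, 171.9 and 195.7 against 169.9 and 218.9 CPM. Sdhd, the second anchor, had 104.9 and 129.2 against 127.7 and 129.1 CPM. The groups of these 3 genes overlapped.

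In complex III the groups did not overlap for 5 of the 7 accessory genes, and they overlapped for the 2 redox subunits. Uqcrh (ENSMUSG00000063882, chromosome 4, 116066965 to 116075071, minus strand), the hinge protein gene that takes part in binding cytochrome c, had 187.1 and 195.0 CPM in the controls and 239.8 and 238.7 CPM in those labelled knockout (log2 fold change 0.32, SE 0.13). Uqcr10 had 151.4 and 150.1 against 178.4 and 188.7 CPM, and Uqcr11 had 102.4 and 107.9 against 121.0 and 128.2 CPM. These 3 genes, named for their small p, are among the 5 accessory genes whose groups did not overlap. Uqcrfs1, which encodes the Rieske iron-sulfur protein, had 15.1 and 11.8 against 15.4 and 14.4 CPM, and its groups overlapped. The median log2 fold change of complex III was 0.21, with 5 of 9 genes apart as higher, where 19.5% of all tested genes were.

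Complex IV, cytochrome c oxidase, had a median log2 fold change of 0.31 over 15 tested genes. Of these genes 11 lay apart as higher, where 19.5% of all tested genes did. Cox5b had 76.9 and 94.2 CPM in the controls and 114.2 and 118.8 CPM in those labelled knockout (log2 fold change 0.45, SE 0.17). Cox6b1 (ENSMUSG00000036751, chromosome 7, 30616861 to 30626151, minus strand) had 198.9 and 194.9 against 241.7 and 269.8 CPM (log2 fold change 0.38, SE 0.14). Cox6c had 221.0 and 230.6 against 285.7 and 286.7 CPM (log2 fold change 0.34, SE 0.13). These nuclear subunits surround the catalytic core made by the mitochondrial genome, and none of the 3 passed the adjusted test. Ndufa4, a subunit first assigned to complex I, had 183.0 and 210.0 against 246.0 and 241.2 CPM.

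Complex IV subunits with tissue isoforms were almost wholly of the widely expressed form. Cox4i1 had 413.2, 395.0, 487.5 and 458.8 CPM in controls 1 and 2 and knockouts 3 and 4, while its lung isoform Cox4i2 had 1, 0, 1 and 0 counts. The muscle and heart form Cox6a2 made up 0.179, 0.561, 0.771 and 0.620% of the Cox6a pair in the same order, as CPM per kilobase of transcript. Cox6a2 had 0.55 and 1.48 against 2.49 and 2.47 CPM, with a log2 fold change of 1.29 (SE 0.76) that did not pass the test. The testis form Cox6b2 and the muscle form Cox7a1 stayed under 1 CPM in every library. Ndufa4l2 had 1, 0, 10 and 1 counts. Cox7b2, Cox8b and Cox8c had 0 counts in all libraries, which allows levels of up to 0.0517 to 0.0698 CPM (a floor of 3 counts, for counting error only). The other named forms, Cox6a1, Cox7a2, Cox7a2l, Cox7b and Cox8a, averaged between 161.5 and 270.4 CPM, and Cox7b had the smallest log2 fold change among them, 0.08.

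Complex V was the complex in which every nuclear subunit gene taken by the rule lay apart as higher, 16 of 16. Among all tested genes 19.5% did. This count was the same with TMM, DESeq2 and upper-quartile scaling and with library totals alone. Atp5s, whose groups overlapped, shares the family name but was set apart from these 16 after the counts were seen. The median log2 fold change was 0.30, from 0.11 for Atp5g3 to 0.47 for Atp5h. Atp5h (ENSMUSG00000034566, chromosome 11, 115415689 to 115419962, minus strand), a peripheral stalk subunit, had 234.6 and 262.2 CPM in the controls and 337.8 and 351.7 CPM in those labelled knockout (log2 fold change 0.47, SE 0.14). In edgeR's quasi-likelihood test with Benjamini-Hochberg adjustment its adjusted p was 0.367. Of the 50-base stretches in the Atp5h transcript 50.5% also occur in transcripts of other genes, so its counts are uncertain.

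Atp5e, the epsilon subunit of the catalytic F1 head, had 265.2 and 254.2 against 324.0 and 328.1 CPM (log2 fold change 0.33, SE 0.13), and none of its stretches is shared. Atp5c1, the gamma subunit of the central shaft, had 347.4 and 362.2 against 428.3 and 451.8 CPM (log2 fold change 0.31, SE 0.13). The proton-carrying c ring is made from 3 genes with an identical mature protein. Their log2 fold changes were 0.19 for Atp5g1, 0.35 for Atp5g2 and 0.11 for Atp5g3. Atp5g3 gave 41.2 and 39.7% of the CPM of the 3 in the controls and 38.2 and 37.8% in the libraries labelled knockout. By role the medians were 0.28 for the F1 head, 0.33 for the stalk, 0.19 for the c ring and 0.34 for the small membrane subunits. Atp5g1 and Atp5g2 share 56.2% and 100% of their stretches with other genes, and Atp5l, Cox7c and Atp5o 84.8%, 53.0% and 50.3%, so the split of their reads is uncertain. Sharing is not confined to these genes, as 47 of the 80 tested subunit genes share some stretch. Among genes named above for a small p, Ndufs5, Cox5b and Cox6c share 35.6%, 25.9% and 17.2%.

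The 8 Ndufaf assembly factors had a median log2 fold change of 0.13, with 2 apart as higher. Ndufaf7, a methyltransferase that acts on a complex I subunit, had 38.7 and 49.6 against 62.4 and 73.9 CPM (log2 fold change 0.63, SE 0.21). Ndufaf1 had 34.4 and 34.4 against 37.0 and 41.5 CPM. Ndufaf5 had 8.38 and 9.36 against 9.12 and 13.4 CPM, and Ndufaf6 stayed under 1 CPM in every library. Atp5s, which is linked to ATP synthase coupling, had 4.67 and 7.09 against 6.0 and 4.72 CPM.

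Per kilobase of principal transcript the subunit genes spanned a wide range, and the low end was taken by the tissue isoforms. The median level over tested genes was 124.3 CPM per kilobase in complex I, 132.6 in complex II, 273.6 in complex III, 245.1 in complex IV and 268.1 in complex V. The highest in each were Ndufa3 at 513.6, Sdha at 170.3, Uqcrq at 468.7, Cox4i1 at 588.7 and Atp5e at 695.6 CPM per kilobase. With the merged length of all exons in place of the principal transcript, Ndufa1, Uqcr10, Cox6a1 and Atp5a1 led complexes I, III, IV and V instead, and Sdha still led complex II. Uqcrfs1 and Cyc1, both redox subunits of complex III, stood at 10.4 and 21.9 CPM per kilobase, below the other genes of that complex.

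**Figure D3:**
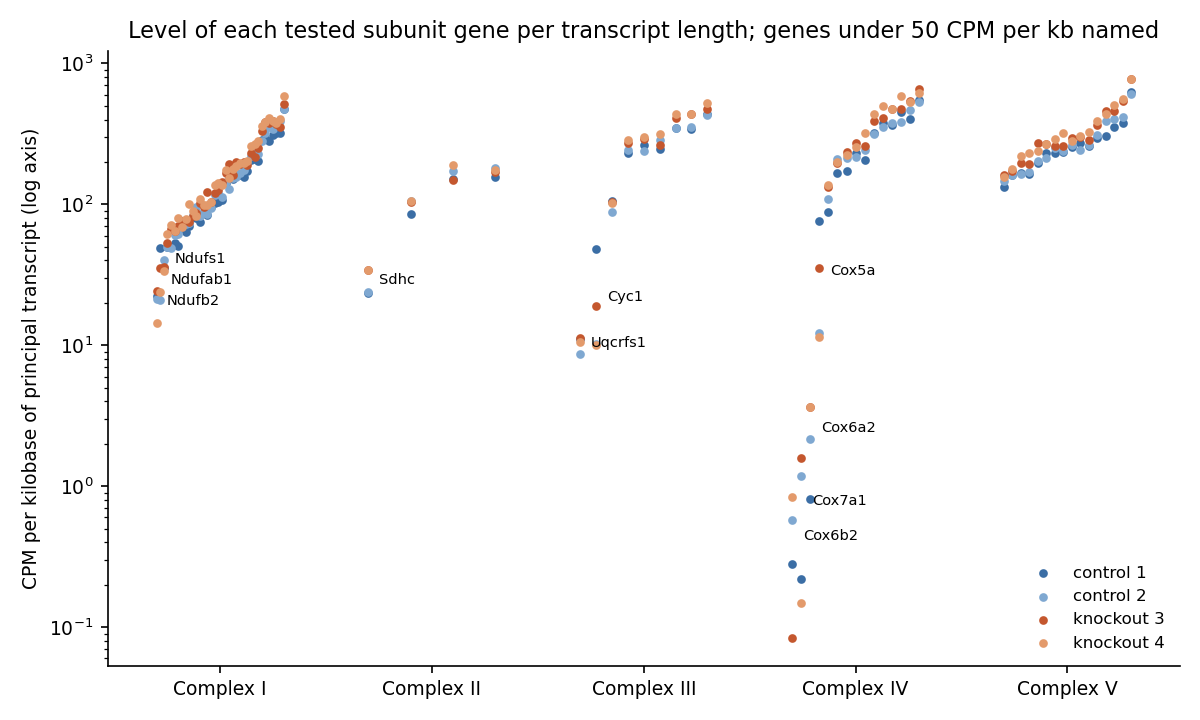
Level of each tested subunit gene in CPM per kilobase of principal transcript (log axis), by complex, with genes ordered by mean level and 1 point per library. Genes under 50 CPM per kilobase are named, and the 4 libraries lie close together except for Cyc1, Cox5a, Ndufab1, Ndufb2 and the isoforms near 1 CPM per kilobase.

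Cyc1, Cox5a and Ndufab1 split the libraries within each group rather than between groups, and they were singled out after their values were seen. Cyc1 (ENSMUSG00000022551, chromosome 15, 76343523 to 76346260, plus strand), which encodes cytochrome c1, had 73.7 and 15.5 CPM in the controls and 28.7 and 15.2 CPM in those labelled knockout. Control 1 exceeded control 2 by 4.77 times, a larger gap than in 99.9% of the 7700 genes averaging at least 10 CPM. The log2 fold change of Cyc1 was -1.02 (SE 0.70), its groups overlapped, and it was 0.50 without control 1. In the fit without a filter on low counts Cyc1 passed as lower (edgeR's quasi-likelihood test with Benjamini-Hochberg adjustment, adjusted p = 0.0125), although knockout 3 lay between the controls.

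Cox5a, a complex IV subunit, had 49.4 and 7.92 against 22.8 and 7.44 CPM, and Ndufab1, the mitochondrial acyl carrier protein, had 69.1 and 29.8 against 50.4 and 33.6 CPM. Control 1 and knockout 3 were the higher libraries for all 3 genes. These libraries carry the same number, 1, in the column names of the deposited table, and control 2 and knockout 4 carry 2, so this split follows that number. The 11 pseudogenes with members' symbols were also higher in control 1 and knockout 3, summing to 42.7 and 23.2 against 37.4 and 25.9 CPM. So were all processed pseudogenes of the table, at 15289 and 10521 against 14453 and 11488 CPM. Cyc1 shares no 50-base stretch with another gene, whereas Cox5a shares 32.0% and Ndufab1 31.2%. What sets these genes apart was not tested.

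**Figure D4:**
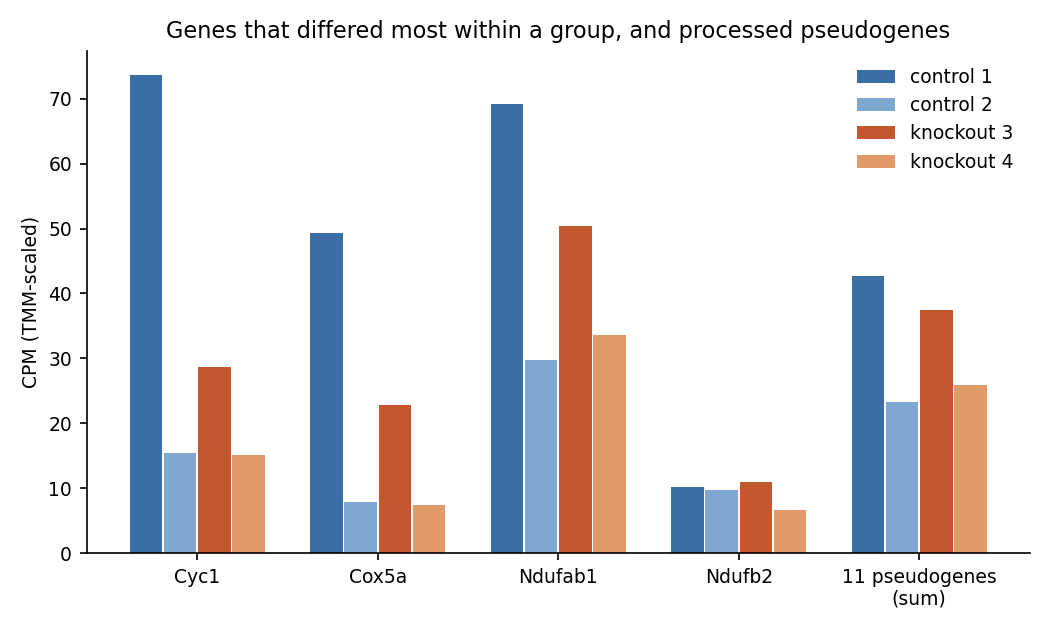
TMM-scaled CPM in each library for Cyc1, Cox5a, Ndufab1 and Ndufb2 and for the sum of the 11 processed pseudogenes with members' symbols. Control 1 is the highest bar for all but Ndufb2, and knockout 3 exceeds knockout 4 in each.

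Genes linked to the same system but outside the rule were read beside the members. The 13 protein-coding genes of the mitochondrial genome had a median log2 fold change of 0.09, with 1 (mt-Atp8) apart as higher and 0 called by edgeR or DESeq2. By edgeR 0 of these genes had an unadjusted p under 0.05. Of the same genes mt-Atp6, which like mt-Atp8 encodes a complex V subunit, had 133.6 and 118.5 against 129.2 and 115.4 CPM. The groups of mt-Atp6 overlapped. Cycs, the electron carrier cytochrome c, had 90.5 and 106.3 against 117.0 and 128.3 CPM. The 38 tested assembly factors outside the rule had a median of -0.02, and 16 of 38 lay above 0. Where 19.5% of all tested genes lay apart as higher and 20.8% as lower, 6 and 8 of these 38 factors did. Among them Cox11, a copper chaperone of complex IV, had 15.9 and 20.2 against 6.38 and 8.19 CPM and passed as lower by DESeq2 (adjusted p = 0.0111) but not by edgeR's quasi-likelihood test (adjusted p = 0.307).

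Of the regulators of these genes, Nrf1, Gabpa, Tfam and Yy1 had log2 fold changes of 0.05, 0.06, -0.02 and 0.44, and none passed. Ppargc1b, Pprc1, Hif1a and Esrra had 0.10, -0.23, -0.13 and -0.49, and none passed either. Esrra lay apart as lower, at 3.57 and 4.53 against 2.70 and 3.07 CPM. Yy1 lay apart as higher, at 12.2 and 13.2 against 15.8 and 18.4 CPM. Ppargc1a had 1, 0, 0 and 2 counts and was not tested. Over the 9 tested regulators, Myc included, the median was -0.02, with 4 above 0. Of these 9 genes 1 lay apart as higher (Yy1) and 2 as lower (Esrra and Myc). Among all tested genes these shares were 19.5% and 20.8%. Myc had 154.2 and 193.1 against 86.2 and 89.8 CPM and passed as lower by DESeq2 (adjusted p = 0.00055) but not by edgeR's quasi-likelihood test (adjusted p = 0.182). Cytoplasmic ribosomal protein genes, which are likewise short and abundant, had a median log2 fold change of 0.27 over 83 genes, with 63 apart as higher. Mitochondrial ribosomal protein genes had a median of 0.14 over 76 genes, with 24 apart as higher. These counts are 75.9% of the cytoplasmic and 31.6% of the mitochondrial ribosomal protein genes, against 19.5% of all tested genes. The 40 subunit genes with transcripts of at most 737 bases had a median of 0.29, and the 40 with longer transcripts 0.20. The median transcript length was 737 bases in the subunit genes and 2722 in all tested genes. The part of transcript length in the members' shift was not tested.

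**Figure D5:**
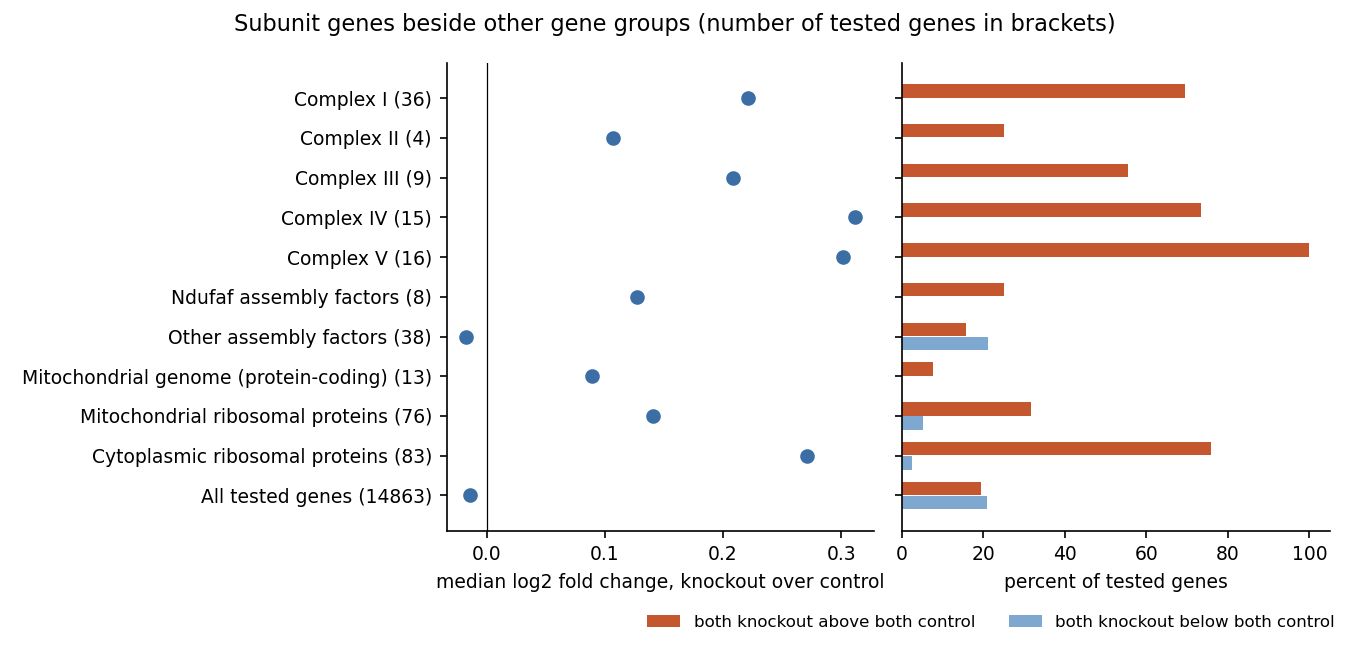
Median log2 fold change, knockout over control (left), and percent of tested genes with both libraries labelled knockout above or below both controls (right), for each complex and for other gene groups. Complex V and complex IV have medians near that of the cytoplasmic ribosomal protein genes, and the mitochondrial genome lies lower.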

How the data were processed

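Low-input SMARTer libraries were made from total RNA, per the labels' protocols. The authors deposited raw read counts per gene for the 4 libraries. The submitters' processing notes name bcl2fastq, STAR, Subread, featureCounts, DESeq2 and mm10, and tool roles, annotation and strand setting are not given in the sources used here. Overlapping genes, antisense genes and near-identical copies thus have uncertain counts. Identical repeated lines (276) were dropped. Replicates differed far beyond sampling noise and were kept as separate samples.

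After filterByExpr and TMM scaling, genes were tested with edgeR 4.0.16 in R 4.3.3 (quasi-likelihood, robust, two-sided), with genotype as the only term, 2 residual degrees of freedom and Benjamini-Hochberg adjustment over 14863 genes (threshold 0.05). The fit was tested on counts simulated with the same spread for all genes and with changes larger than the members' median. That test does not show how the fit performs at shifts as small as theirs. Alternatives were DESeq2 1.42.0, limma-voom 3.58.1, other scalings, other filters and leaving out each library. Levels are TMM-scaled CPM. Lengths are those of GENCODE M21 principal transcripts, on mm10.

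Named genes were, in each complex and the Ndufaf group, the members highest and lowest per kilobase, up to 3 with the smallest p, the 4 complex II genes, and tissue isoforms and paralogs. A gene that this rule names is not reported here, though the counts and medians include it. The members and lists were chosen with earlier results of these data known. The following were chosen after values were seen: the fit with a replicate block, the 10 CPM minimum, principal transcripts in place of merged exons, the 50-base sharing and length splits, the promoter strings and window, and Cyc1, Cox5a and Ndufab1. Ndufs1, Ndufs3, Ndufv1 and the marker and regulator genes given with values were also named after their values were seen. Placing Ndufa4 in complex IV and setting Atp5s and the Ndufaf genes apart was done after the counts were seen.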

Additional observations from a re-analysis of the deposited data

How the results depend on the processing

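With 2 libraries a group and 2 residual degrees of freedom, precision is set by the libraries and not by depth. Members called stayed at 0 higher and 0 lower in the alternatives run, except that 1 was lower (Cyc1) with no filter on low counts. Members higher at an unadjusted p under 0.05 numbered 9, and 20 with upper-quartile factors and 20 with a replicate block. They ranged from 1 to 8 when 1 library was left out, with 2 without control 1, 5 without knockout 3 and 1 without knockout 4. Members lower numbered 0, 2 with no filter, and 0 to 2 when 1 library was left out, with 2 without control 2 (Cyc1 and Cox5a) and 1 without knockout 4 (Ndufaf6). The sample titles number the libraries 1 to 4, and the columns number them 1 and 2 within each genotype, with nothing to say what a number marks. The block, added after the data were seen, paired control 1 with knockout 3 and control 2 with knockout 4 by that column number, and the deviations of same-numbered libraries correlated at 0.12 over 14863 genes, and called 0 members.

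With library totals alone the median log2 fold change was 0.19 for all members, 0.27 for complex IV and 0.26 for complex V. When 1 library was left out it ranged from 0.16 to 0.27 for all members, 0.13 to 0.27 for complex I, -0.010 to 0.24 for complex II, 0.17 to 0.29 for complex III, 0.25 to 0.38 for complex IV, 0.21 to 0.30 for complex V and 0.045 to 0.19 for the Ndufaf genes.

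Of 42 named tested genes 28 kept their direction in all alternatives run. Sdha had -0.016 with library totals alone and -0.0036 with the stricter filter, Cox6b2 -0.35 and Cox7a1 -0.051 with limma-voom, and Cox6b2 -0.46 with the replicate block. When 1 library was left out the log2 fold change changed sign for 14 genes, ranging from -0.077 to 0.14 for Sdha, -0.14 to 0.23 for Sdhb, -0.0095 to 0.29 for Sdhd, -2.30 to 0.96 for Cox6b2, -2.20 to 1.96 for Cox7a1, -0.078 to 0.26 for Cox7b, -0.11 to 0.016 for Ndufaf8, -8.06 to 0.077 for Ndufaf6, -0.72 to 0.49 for Ndufab1, -1.75 to 0.50 for Cyc1, -1.98 to 0.93 for Cox5a, -0.016 to 0.33 for Uqcrfs1, -0.41 to 0.20 for Atp5s and -0.62 to 0.11 for Ndufb2. The cause was not tested.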
